A study of Arabidopsis thaliana with 12 samples.

Results

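Described here are 7 Arabidopsis thaliana genes known for their response to darkness and sugar starvation, namely DIN1 (AT4G35770, also SEN1), ASN1 (AT3G47340, also DIN6), DIN10 (AT5G20250), DIN2 (AT3G60140, also BGLU30), DIN9 (AT1G67070, also PMI2), AT2G33830 (also DRM2) and AT3G15450. They are 7 of 33602 gene models in the deposited tables. They were chosen from their read counts in these same libraries, because several lay on opposite sides of 0 in the 2 mutant lines. Their differences between groups are therefore given as a description, without a test. DIN stands for dark inducible. Plants that cannot photosynthesise activate the kinase SnRK1, which works with bZIP transcription factors to switch on genes that recycle amino acids, sugars and lipids for respiration, and sugars switch these genes off again. ASN1 is the best known target of this response, and the DIN genes were first found as transcripts that accumulate in leaves kept in the dark.

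Total RNA, depleted of ribosomal RNA, had been sequenced from 12 samples in 4 groups of 3. A T-DNA insertion lay in DYW2 in the line called dyw2 and in NUWA (OTP100) in the line called nuwa, and each line gave a heterozygous and a homozygous group. Both genes encode pentatricopeptide repeat proteins needed for RNA editing in plastids and mitochondria. The heterozygous plants served as controls and carry the insertion on 1 chromosome copy, so no group is free of it. Per the labels each sample joined flower bud, rosette and stem of soil-grown plants in long days, at the Boyes stage when flower buds become visible. The 3 samples of a group are biological replicates per the series' design text. Nothing used here says whether separate plants gave them, and without that p-values measure only the spread among these samples, which could be technical.

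Libraries held 13329334 to 97804029 counts, the lowest totals being those titled dyw2 homozygous. Plastid gene models took 26.6% to 32.5% of counts in those 3 libraries and 57.2% to 66.9% in the other 9. For 2 libraries the mutant in the title is not the one in the genotype field. The field gives nuwa for dyw2 homozygous replicate 2 and dyw2 for nuwa homozygous replicate 3. Titles were followed, and values without both libraries are given below. Transcripts of the targeted genes were not lower in the libraries labelled homozygous. DYW2 lay at 5.57 to 7.08 CPM (read counts scaled to library size after TMM normalization) in those titled dyw2 heterozygous and at 9.50 to 11.02 in those titled dyw2 homozygous. NUWA lay at 0.351 to 0.906 CPM in those titled nuwa heterozygous and at 0.761 to 1.34 in those titled nuwa homozygous. The TMM factors were 2.02 to 2.23 in the 3 libraries titled dyw2 homozygous and 0.617 to 0.985 in the other 9. Every direction below is between libraries as titled, after this scaling, and small falls in dyw2 can rest on it.

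The 250 bases before the annotated gene starts of 3 members are shown, because these are the members with matches to TATCCA or to a pair of ACGTG cores. ACGTG is the core that plant bZIP factors bind, CACGTG is the G-box, TATCCA is known from sugar-repressed amylase promoters of rice, and ACTCAT is bound by bZIP factors in the Arabidopsis proline dehydrogenase promoter. Capitals mark matches to these 4 motifs in either orientation, and each sequence runs 5′ to 3′ on the strand of its gene. They were read from TAIR10.1 at chr3:17441432-17441681 (minus strand) for ASN1, chr2:14310609-14310858 (minus strand) for AT2G33830 and chr3:5212734-5212983 (plus strand) for AT3G15450.
ASN1: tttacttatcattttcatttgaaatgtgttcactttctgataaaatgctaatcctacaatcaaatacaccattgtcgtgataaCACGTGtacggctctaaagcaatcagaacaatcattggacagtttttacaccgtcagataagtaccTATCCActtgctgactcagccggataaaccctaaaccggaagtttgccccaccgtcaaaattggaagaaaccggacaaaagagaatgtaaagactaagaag
AT2G33830: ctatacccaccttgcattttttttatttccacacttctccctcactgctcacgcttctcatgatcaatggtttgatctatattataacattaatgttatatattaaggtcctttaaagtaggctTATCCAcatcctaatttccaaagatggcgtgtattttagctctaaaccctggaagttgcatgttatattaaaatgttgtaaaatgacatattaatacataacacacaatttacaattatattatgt
AT3G15450: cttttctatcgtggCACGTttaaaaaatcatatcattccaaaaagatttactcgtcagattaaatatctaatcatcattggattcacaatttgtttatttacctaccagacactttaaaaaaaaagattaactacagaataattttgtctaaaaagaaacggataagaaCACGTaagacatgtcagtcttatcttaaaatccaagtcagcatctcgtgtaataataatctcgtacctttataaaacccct

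The ASN1 window held a G-box beginning 167 bases before the gene start and TATCCA beginning 101 bases before it. Its 2 ACGTG matches lie inside the G-box, which reads alike on both strands. AT2G33830 had TATCCA at 126 bases and no ACGTG, and its only GATAA match, at 127 bases, overlaps that TATCCA. AT3G15450 had ACGTG at 236 and 81 bases, and also the evening element core AATATCT at 188 bases. Among the other members, DIN10 had ACGTG at 43 bases and DIN9 had ACTCAT at 94 bases. DIN1 and DIN2 held none of the 4 capitalised motifs.

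Over the 7 windows, the G-box was present in 1, ACGTG in 3, TATCCA in 2, ACTCAT in 1, GATAA in 5 and AATATCT in 1. Such windows were also read before the annotated protein-coding genes of the nuclear chromosomes, 27443 in all, and searched on both strands. Of these, 6.49% held the G-box, 22.9% ACGTG, 13.6% TATCCA, 12.3% ACTCAT, 54.9% GATAA and 10% AATATCT. Such a match is a description of these letters and not a bound site. The ASN1 window overlaps the annotated gene AT3G47341, and the DIN1 window overlaps AT4G35760.

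All 7 members passed the filter on low counts, as did 21213 gene models in all. For 6 of 7 the value was above 0 for dyw2 (homozygous against heterozygous) and below 0 for nuwa, beside 20.2% of all genes tested, and this is the pattern they were chosen for. DIN10 was the exception, below 0 in both lines. Of the 6, DIN9 in nuwa (-0.05 ± 0.18 SE) and AT3G15450 in dyw2 (0.32 ± 0.36 SE) lay within their errors of 0. The nuwa value of DIN2 rests on nuwa heterozygous replicate 2. Only DIN1, ASN1 and AT2G33830 separated without overlap in both lines in opposite directions. In dyw2 the CPM of the 2 groups did not overlap for 5 members that were higher (34.7% of all genes) and for DIN10, which was lower (36.1% of all genes). In nuwa 5 members were lower without overlap (12.8% of all genes), and the groups of DIN2 and DIN9 overlapped. The median value over the members was 1.18 on the log2 scale for dyw2, -2.45 for nuwa and 4.18 for the dyw2 value minus the nuwa value. Over all genes tested these medians were -0.05, -0.02 and 0.03.

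**Figure D1:**
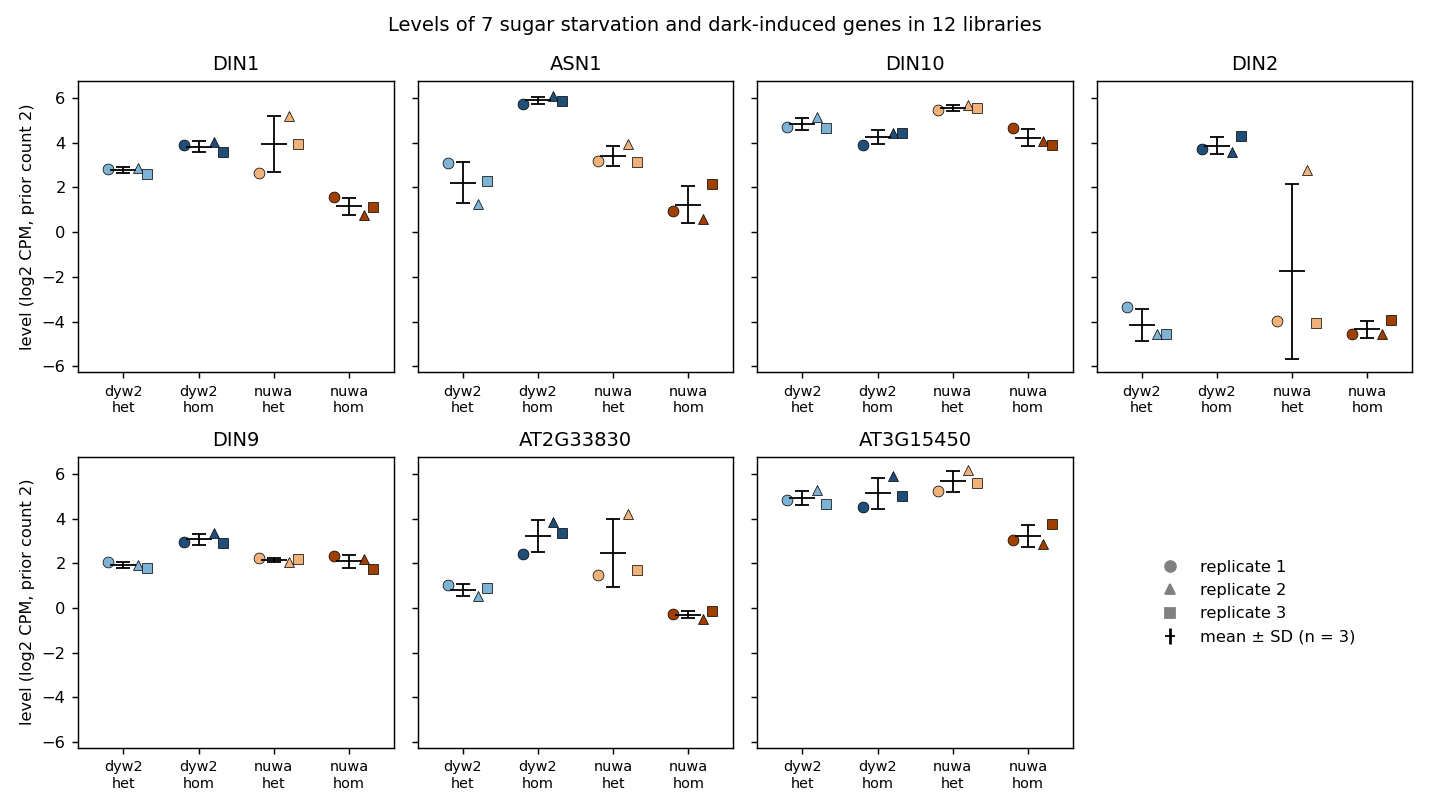
Level of each of the 7 members (log2 CPM, prior count 2) in the 12 libraries, in the 4 groups as titled (het, heterozygous; hom, homozygous). Points are libraries, with a shape for each replicate number, and bars give the mean ± SD (n = 3). The triangle of nuwa heterozygous replicate 2 stands above the other libraries of its group for DIN1, DIN2 and AT2G33830.

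ASN1 encodes the asparagine synthetase that moves amide nitrogen from glutamine to asparagine, a nitrogen-rich transport form made when carbon is short. It lies on chromosome 3 from 17437840 to 17441431 (minus strand, 10 exons, TAIR10.1). Its level was 8.64, 2.35 and 4.83 CPM in the libraries titled dyw2 heterozygous, and 53.4, 68.0 and 57.8 CPM in those titled dyw2 homozygous. It was 9.02, 15.3 and 8.72 CPM in the libraries titled nuwa heterozygous, and 1.88, 1.48 and 4.45 CPM in those titled nuwa homozygous. The dyw2 homozygous libraries are thus far above all 9 others, and the nuwa homozygous ones lie below every nuwa heterozygous one. Only the dyw2 heterozygous and nuwa homozygous libraries overlapped between neighbours in the order of the groups. The log2 fold change was 3.50 ± 0.48 (SE) for dyw2, and -2.07 ± 0.47 (SE) for nuwa, which is 4.19-fold lower. Nuwa homozygous replicate 3, a library of disputed label, was the highest of its group, and without it the nuwa value was -2.70, or 6.52-fold lower. The overlapping gene AT3G47341 is listed at 0 counts in every library, and how reads of overlapping models were assigned is not stated.

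In the libraries of disputed label ASN1 stood at 68.0 CPM (dyw2 homozygous replicate 2) and 4.45 CPM (nuwa homozygous replicate 3). ASN1 was chosen for its values in the groups as titled, so it says nothing on which label holds. Plastid gene models had no part in that choice. They took 31.07% of counts in dyw2 homozygous replicate 2, and 26.62% and 32.5% in its companions by title. In nuwa homozygous replicate 3 they took 60.57%, and 66.9% and 60.35% in its companions by title. In this share each library was thus like those of its title. With groups taken from the genotype field instead, the ASN1 value for nuwa turned to 1.11 ± 1.30 (SE). Without both libraries the ASN1 values were 3.40 for dyw2 and -2.71 for nuwa.

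There are 3 members that encode enzymes of sugar metabolism. DIN2 encodes a beta-glucosidase, which splits glucose from glucosides. It lies on chromosome 3 from 22216540 to 22220824 (plus strand, 12 exons). The libraries titled dyw2 heterozygous held 3, 0 and 0 counts, and those titled dyw2 homozygous 395, 605 and 649. The libraries titled nuwa heterozygous held 1, 467 and 1 counts, and those titled nuwa homozygous 0, 0 and 1. DIN2 was thus above 1 CPM in 4 libraries, the 3 titled dyw2 homozygous and nuwa heterozygous replicate 2, and the other 8 held at most 3 counts each.

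Pooled over libraries and scaled to their sizes, DIN2 was 815-fold higher in those titled dyw2 homozygous than in those titled dyw2 heterozygous (1649 against 3 counts, exact 95% interval 278.5 to 3957). All 3 counts of the controls came from dyw2 heterozygous replicate 1, and without it DIN2 was at least 556-fold higher, taking 3 counts as the floor for that group. The nuwa heterozygous libraries had 469 counts against 1 in the nuwa homozygous ones, a ratio of 312 (exact 95% interval 55.7 to 12340). Without nuwa heterozygous replicate 2 these were 2 counts against 1, too few for a fold. These intervals cover counting error only. The nuwa value of DIN2 thus rests on that library, in which DIN2 stood at 6.82 CPM, 351-fold above its 2 companions pooled (exact 95% interval 96.6 to 2907).

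DIN9 encodes a phosphomannose isomerase, which interconverts mannose 6-phosphate and fructose 6-phosphate on the way to ascorbate and cell wall sugars. The gene is on chromosome 1 from 25041833 to 25044659 (plus strand, 5 exons). The libraries titled dyw2 heterozygous had 4.07, 3.78 and 3.36 CPM and those titled dyw2 homozygous 7.57, 10.3 and 7.44 CPM. The libraries titled nuwa heterozygous had 4.64, 4.09 and 4.48 CPM and those titled nuwa homozygous 4.95, 4.53 and 3.31 CPM. The 3 libraries titled dyw2 homozygous were above the rest, and the remaining 3 groups overlapped their neighbours in order. The dyw2 value was 1.18 ± 0.18 (SE), or 2.26-fold higher. The nuwa value was -0.05 ± 0.18 (SE), within its error of 0, and its sign turned in 4 of the alternative settings.

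DIN10 is annotated as a raffinose synthase, which would build galactose-containing storage sugars. It lies on chromosome 5 from 6833564 to 6836862 (plus strand, 5 exons), and the gene that overlaps it, AT5G20260, held 0 to 10 counts. The libraries titled dyw2 heterozygous had 26.4, 35.5 and 25.5 CPM and those titled dyw2 homozygous 14.9, 21.6 and 21.4 CPM. The libraries titled nuwa heterozygous had 43.7, 52.3 and 47.4 CPM and those titled nuwa homozygous 25.1, 17.0 and 15.1 CPM. DIN10 was lower in the homozygous libraries of both lines with no overlap, at -0.59 ± 0.21 (SE) for dyw2 and -1.32 ± 0.21 (SE) for nuwa, and both homozygous groups lay at the same height. Its nuwa heterozygous libraries were above all 9 others. The dyw2 direction of DIN10 rests on the TMM scaling, since per total counts alone the order of these 2 groups would be reversed. With organelle genes omitted before the scaling, the dyw2 value was -0.59 ± 0.22 (SE).

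DIN1, also known as SEN1, has a rhodanese domain and is used as a marker of dark-induced and natural leaf senescence. The gene is on chromosome 4 from 16944878 to 16946266 (plus strand, 5 exons). The libraries titled dyw2 heterozygous had 7.01, 7.37 and 6.12 CPM and those titled dyw2 homozygous 14.8, 16.2 and 11.9 CPM. The libraries titled nuwa heterozygous had 6.32, 36.7 and 15.5 CPM and those titled nuwa homozygous 2.90, 1.68 and 2.12 CPM. Both lines separated without overlap, in opposite directions, while nuwa heterozygous replicate 2 alone exceeded every library titled dyw2 homozygous by more than 2-fold. The values were 1.07 ± 0.46 (SE) for dyw2, 2.10-fold higher, and -3.12 ± 0.50 (SE) for nuwa, 8.67-fold lower. Without nuwa heterozygous replicate 2 the nuwa value was -2.28 ± 0.33 (SE), 4.85-fold lower, and the dyw2 value minus the nuwa value moved from 4.18 to 3.34.

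AT2G33830 (DRM2) belongs to the dormancy/auxin associated family, small proteins whose transcripts accumulate in dormant buds and starved tissue and whose biochemical function is not settled. Its position is chromosome 2 from 14308754 to 14310608 (minus strand, 3 exons). The libraries titled dyw2 heterozygous had 1.97, 1.39 and 1.83 CPM and those titled dyw2 homozygous 5.35, 14.2 and 10.08 CPM. The libraries titled nuwa heterozygous had 2.77, 18.3 and 3.17 CPM and those titled nuwa homozygous 0.785, 0.671 and 0.856 CPM. Both lines again separated without overlap, at 2.52 ± 0.64 (SE) for dyw2 and -3.38 ± 0.70 (SE) for nuwa. Nuwa heterozygous replicate 2 was the highest of all 12 libraries. Without it the nuwa value was -1.94 ± 0.35 (SE), 3.82-fold in place of 10.4-fold lower, and the dyw2 value minus the nuwa value was 4.45 in place of 5.90.

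AT3G15450 is annotated as an aluminium-induced protein with YGL and LRDR motifs, a family related to the glutaminase part of asparagine synthetases. It lies on chromosome 3 from 5212984 to 5214124 (plus strand, 3 exons). The libraries titled dyw2 heterozygous had 28.2, 38.7 and 24.9 CPM and those titled dyw2 homozygous 22.8, 59.1 and 32.3 CPM. The libraries titled nuwa heterozygous had 37.3, 72.1 and 48.3 CPM and those titled nuwa homozygous 8.16, 7.14 and 13.6 CPM. The dyw2 groups overlapped and their value was 0.32 ± 0.36 (SE), less than its error. It turned to -0.15 without both libraries of disputed label. Dyw2 homozygous replicate 2, 1 of these, was the highest of its group. The nuwa value was -2.45 ± 0.38 (SE), 5.46-fold lower, with all 3 nuwa homozygous libraries below the other 9. The opposite gene AT3G15460 overlaps AT3G15450 and held 169 to 429 counts against 213 to 4935 for AT3G15450. With no statement on strand in counting, reads of the pair were not separated.

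**Figure D2:**
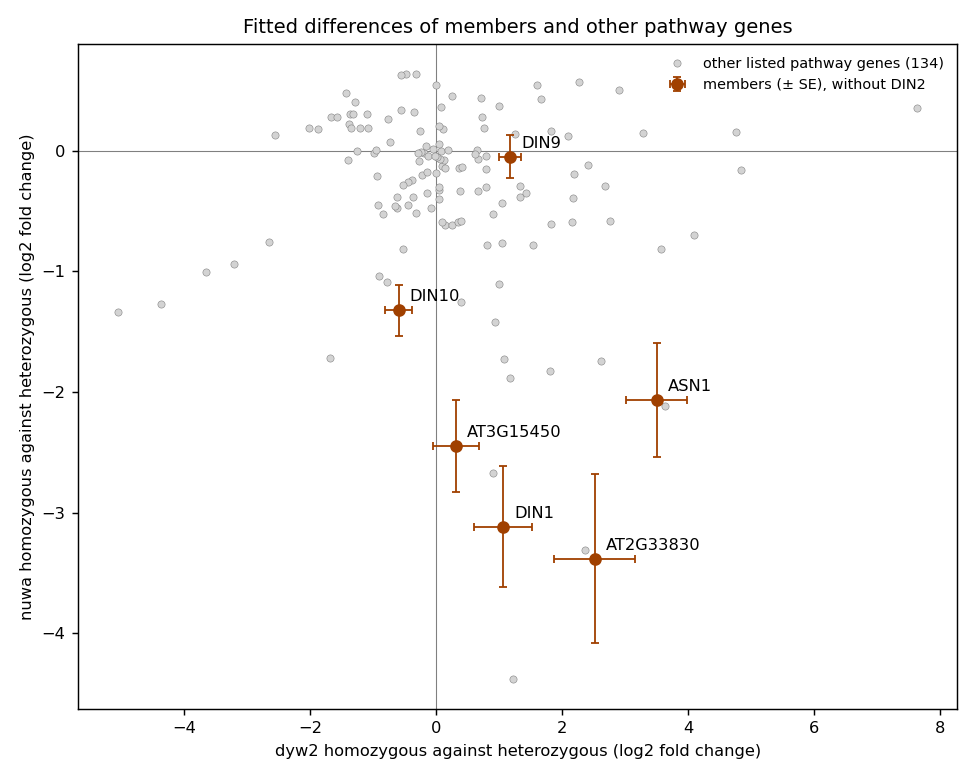
Log2 fold change of homozygous against heterozygous libraries for dyw2 (horizontal axis) and nuwa (vertical axis), from the same edgeR model. Coloured points are the 6 members other than DIN2 (bars ± SE), and grey points are the other 134 tested genes of the starvation, dark and sugar lists. DIN1, ASN1 and AT2G33830 lie in the lower right, DIN10 at the lower left, and DIN9 near 0 for nuwa.

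Levels of different members can be compared only per length of the counted gene model. In CPM per kilobase, AT3G15450 had the highest mean in each of the 4 groups, from 10.12 ± 3.63 (SD, n = 3) in the libraries titled nuwa homozygous to 55.3 ± 18.7 (SD, n = 3) in those titled nuwa heterozygous. Single libraries differed. ASN1 was above it in dyw2 homozygous replicate 1 (24.19 against 23.99), and DIN10 in nuwa homozygous replicate 1 (9.12 against 8.58). ASN1 ranked second in the libraries titled dyw2 homozygous at 27.1 ± 3.39 (SD, n = 3) CPM per kilobase. In those titled nuwa homozygous it was at 1.18 ± 0.731 (SD, n = 3), where DIN10, at 6.93 ± 1.92 (SD, n = 3), took the second place.

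Nuwa heterozygous replicate 2 was the highest of its 3 libraries for 6 of 7 members, DIN9 being the exception, beside 36.5% of all genes tested. It exceeded both companions by more than 1 on the log2 CPM scale for DIN1, DIN2 and AT2G33830, 3 of 7 members, beside 3.15% of all genes. Without it, the nuwa values of the 6 members other than DIN2 were -2.28 for DIN1, -1.75 for ASN1, -1.25 for DIN10, -0.10 for DIN9, -1.94 for AT2G33830 and -2.15 for AT3G15450, that of DIN9 (SE 0.20) lying within its error of 0. Between the heterozygous groups of the lines, where edgeR called 0.132% of all genes, the dyw2 minus nuwa values of these 6 members lay from -2.23 for AT2G33830 to -0.24 for DIN9. DIN2 had 3 counts in the dyw2 heterozygous libraries and 469 in the nuwa heterozygous ones, 467 of them in replicate 2. Among the libraries titled dyw2 homozygous, replicate 2, of disputed label, was likewise the highest for every member but DIN2. The share of all genes was not computed for that library.

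**Figure D3:**
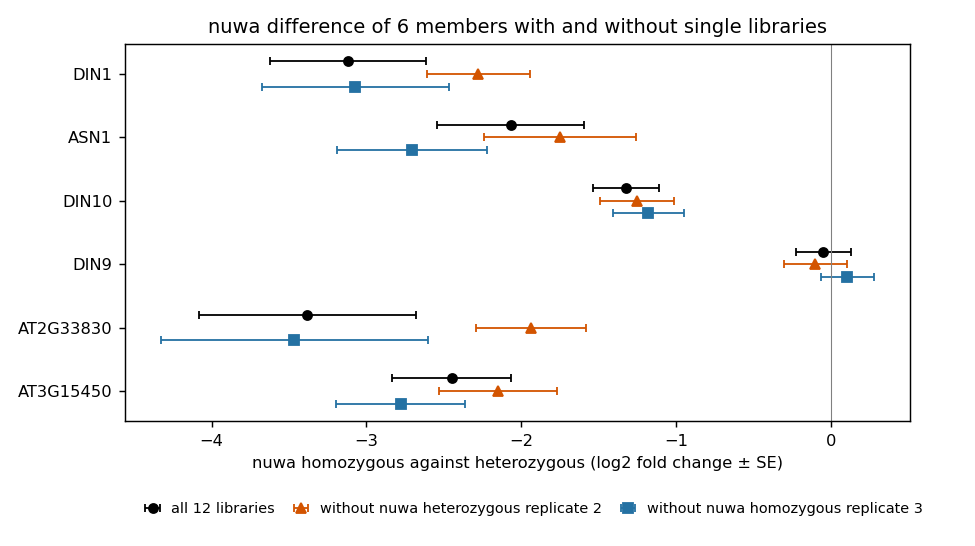
Log2 fold change ± SE of nuwa homozygous against nuwa heterozygous libraries for the 6 members other than DIN2, with all 12 libraries, without nuwa heterozygous replicate 2 and without nuwa homozygous replicate 3. AT2G33830 moves from -3.38 to -1.94 and DIN1 from -3.12 to -2.28 without the heterozygous library, and ASN1 moves to -2.70 without the homozygous one.

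Tissue markers differed between the dyw2 groups, and in nuwa the floral and pollen ones were low in homozygous replicates 1 and 2 only. In bulk samples, fewer cells of a type and less RNA per cell cannot be told apart. The 7 floral organ genes AG, SEP1, SEP2, SEP3, AP1, AP3 and PI summed to 41.5 to 107 CPM in the libraries titled dyw2 heterozygous and 5.35 to 10.4 CPM in those titled dyw2 homozygous. They summed to 68.1 to 108 CPM in those titled nuwa heterozygous, and to 8.54, 3.59 and 60.6 CPM in nuwa homozygous replicates 1, 2 and 3. The pollen genes VGD1 and PPME1 were both at 0 counts in all 3 libraries titled dyw2 homozygous and in nuwa homozygous replicate 1. By edgeR, 5 of 7 floral organ genes, both pollen genes, 2 of 6 stem wall genes and all 4 green leaf genes fell in dyw2, and none of the 19 was called in nuwa (3 at an unadjusted p under 0.05, all floral organ genes, and 2 called by DESeq2). The 4 green leaf genes CA1, RBCS1A, RCA and GLDP1 summed to 12570 to 18220 CPM in those titled dyw2 heterozygous, 1415 to 2147 in those titled dyw2 homozygous and 13270 to 18380 in those of both nuwa groups. Sums of the 6 stem wall genes overlapped between the groups of each line. The part of tissue makeup in the members' values was not tested. Nuwa homozygous replicate 3, with the highest floral sum of its group, was also its highest library for ASN1 (4.45 CPM), AT2G33830 (0.856 CPM) and AT3G15450 (13.6 CPM), and the lowest for DIN9 (3.31 CPM) and DIN10 (15.1 CPM). The floral marker score (mean log2 CPM of the 7 floral genes) was 2.44 to 3.83 in the dyw2 heterozygous libraries and -0.907 to 0.191 in the dyw2 homozygous ones. It was 3.168 to 3.845 in the nuwa heterozygous libraries and -1.524, -1.919 and 2.951 in nuwa homozygous replicates 1, 2 and 3. The groups overlapped in neither line, so values with the score as a covariate are extrapolations in both. For dyw2 and nuwa they were 0.70 ± 0.70 and -3.48 ± 0.77 (SE) for DIN1, 4.73 ± 0.53 and -1.06 ± 0.54 for ASN1. DIN10 was at -0.92 and -1.70, DIN9 at 0.87 and -0.39, AT2G33830 at 2.51 and -3.40 and AT3G15450 at 0.745 and -2.03. DIN2 was at 5.12 ± 5.29 and -13.64 ± 5.04.

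The genes whose levels were most like a member's over the 12 libraries, by Pearson's r of log2 CPM among 14295 genes, are given as a description, and the libraries share groups and normalization. For ASN1 these were CYP707A1 (0.978), which breaks down abscisic acid, the cysteine protease gene RD21B (0.977) and SK4 (0.976). For DIN1 they were AT4G27450 (0.954), of the same family as AT3G15450, SPT1 (0.938) and HSD3 (0.914). AT2G33830 was closest to SPT1 (0.963), to its family member DRM1 (0.962) and to a xylose isomerase gene, AT5G57655 (0.953). For DIN2 they were TBP1 (0.982), the ornithine aminotransferase gene DELTA-OAT (0.975) and the nitrilase gene NIT2 (0.967). For DIN9 they were SPDS1 (0.962), DDB2 (0.955) and ALPHA-SNAP1 (0.954), for DIN10 SMT3 (0.928) and the histone genes AT4G40040 (0.922) and AT5G10980 (0.921), and for AT3G15450 AT3G15630 (0.928), HSD3 (0.920) and ZAT (0.890).

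The members were set beside 145 other genes in 11 lists of starvation, dark and sugar functions, of which 134 passed the filter. The lists were chosen with earlier results of these data known, so shares of listed genes beside those of all genes are a description. In dyw2, 47 of the 134 rose and 38 fell (63.4% called, beside 62.9% of all genes, of which 30.1% rose and 32.8% fell). In nuwa 1 rose and 5 fell (4.48%, beside 2.18% of all genes, of which 1.54% rose and 0.636% fell). The difference between the lines was called higher in dyw2 for 48 and lower for 28 (56.7%, beside 40.9% of all genes, 19.2% higher and 21.7% lower). The median log2 fold changes over the listed genes were 0.06, -0.14 and 0.20, beside -0.05, -0.02 and 0.03 over all genes. All calls are from edgeR's quasi-likelihood test with Benjamini-Hochberg adjustment over all genes tested. The dyw2 calls changed with the grouping, since groups taken from the genotype field gave 0 calls among the listed genes in each comparison (30, 11 and 0 at an unadjusted p under 0.05). Among all 21213 genes tested that grouping gave 0 calls in each comparison too.

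Of the 3 DIN genes that are no members, DIN11, an oxygenase gene, and DIN4, a subunit of the dehydrogenase that breaks down branched-chain amino acids, rose in dyw2. DIN4 went from 6.83 to 7.76 CPM in the libraries titled dyw2 heterozygous to 14.2 to 16.8 CPM in those titled dyw2 homozygous (log2 fold change 1.05 ± 0.17 SE, edgeR adjusted p = 0.000206). DIN11 held 3, 3 and 12 counts against 897, 1036 and 483 (7.64 ± 0.69 SE, edgeR adjusted p = 3.61e-06), and 8.53 without dyw2 heterozygous replicate 3. DIN4 fell in nuwa (-0.76 ± 0.17 SE, edgeR adjusted p = 0.0404), a call lost when any of 9 libraries was left out (adjusted p 0.0591 to 0.16). DIN3, of the same dehydrogenase, had values of -0.08 and -0.47 and passed neither test.

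Among 17 tested relatives of the members, 6 rose and 7 fell in dyw2, and 1 rose and 2 fell in nuwa. DRM1, the closest relative of AT2G33830, was the listed relative that passed the test in opposite directions. It had 1.85 to 2.06 CPM in the libraries titled dyw2 heterozygous and 4.61 to 9.84 CPM in those titled dyw2 homozygous (1.81 ± 0.29 SE, edgeR adjusted p = 0.000248). It had 3.29 to 5.95 CPM in the libraries titled nuwa heterozygous and 1.04 to 1.52 CPM in those titled nuwa homozygous (-1.83 ± 0.31 SE, edgeR adjusted p = 0.0143, and 0.0764 without nuwa homozygous replicate 2). AT4G27450, a relative of AT3G15450, fell in nuwa by 1.26 on the log2 scale (edgeR adjusted p = 0.041). That call was lost when any of 8 libraries was left out (adjusted p 0.0504 to 0.177), and without nuwa heterozygous replicate 2 the value was -0.85. AT3G22850, of that family too, rose in both lines, by 2.91 ± 0.12 (SE) in dyw2 and 0.51 ± 0.12 (SE) in nuwa, where 9 of the 12 single-library omissions removed the call. ASN2, which encodes another asparagine synthetase, fell in dyw2 by 1.87 on the log2 scale (edgeR adjusted p = 8.58e-06), where ASN1 lay far higher. RS2, a raffinose synthase relative of DIN10, rose in dyw2 by 2.16, and RS5 fell by 1.10 on the log2 scale.

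Among 19 genes that break down branched-chain amino acids, lysine and methionine, 9 rose and 2 fell in dyw2, and 1, DIN4, fell in nuwa. BCAT2, which takes the amino group off branched-chain amino acids, rose in dyw2 by 3.63 ± 0.67 (SE, edgeR adjusted p = 0.000643), and MGL, which cleaves methionine, by 1.83 ± 0.28 (SE, adjusted p = 0.000165). The dehydrogenase subunit gene AT1G21400 rose by 1.54 ± 0.30 (SE, adjusted p = 0.000838), while BCAT1 fell by 3.20 and AT5G09300 by 1.68 on the log2 scale. In nuwa the value of BCAT2 was -2.11 (edgeR adjusted p = 0.144), not called. The difference between the lines was called for BCAT2, at 5.75 ± 0.97 (SE), or 4.56 without nuwa heterozygous replicate 2 and 6.88 without nuwa homozygous replicate 3. It was also called for LKR, which starts lysine breakdown, at 3.06 ± 0.67 (SE), or 2.38 without nuwa heterozygous replicate 2.

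Among 11 genes of nitrogen and carbon remobilization, 7 rose and 3 fell in dyw2. GDH2, a glutamate dehydrogenase, rose by 3.58 ± 0.34 (SE, edgeR adjusted p = 4.72e-06), GLN1;3, a cytosolic glutamine synthetase, by 2.76 ± 0.46 (SE, adjusted p = 0.000302), and PCK1, which makes phosphoenolpyruvate for gluconeogenesis, by 2.18 ± 0.24 (SE, adjusted p = 1.22e-05). Their relatives GDH3 and GLN1;4 fell by 5.04 and 3.65 on the log2 scale. GDH3 held 0, 6 and 1 counts in the libraries titled dyw2 homozygous, and its value was -6.78 without replicate 2 of them. That of GLN1;4, with 4, 11 and 17 counts there, was -4.29 without replicate 3.

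Among 12 tested genes of SnRK1, sugar sensors and bZIP factors, 2 rose and 2 fell in dyw2. KIN10, the main catalytic subunit of SnRK1, was not called in either line, at 0.13 ± 0.11 (SE) and -0.07 ± 0.11 (SE). AKINBETA1, a regulatory subunit of SnRK1, fell in both, by 0.53 in dyw2 (edgeR adjusted p = 0.00690) and 0.81 in nuwa (edgeR adjusted p = 0.0171, and 0.0528 without nuwa heterozygous replicate 2, 0.0567 without nuwa heterozygous replicate 3 and 0.081 without nuwa homozygous replicate 2). Per total counts alone, the order of the dyw2 groups would be reversed for AKINBETA1, as for DIN10, and for ATG8F below. BZIP63, a factor that SnRK1 phosphorylates, fell in dyw2 by 2.65 ± 0.21 (SE, edgeR adjusted p = 1.41e-06). The 5 listed genes that were not tested, BZIP1, BZIP2, BZIP11, BZIP44 and BZIP53, are listed at 0 counts in every library. How reads were assigned to these models is not stated, so the 0 counts need not mean that the transcripts were absent. TOR, the kinase of the fed state, rose by 1.67 ± 0.23 (SE, adjusted p = 8.53e-05) and BZIP25 by 0.80 ± 0.12 (SE, adjusted p = 0.000183). Of 8 trehalose-phosphate synthase genes, 1 rose and 2 fell in dyw2, with TPS10 at 1.33 ± 0.32 (SE, adjusted p = 0.00349).

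Among 14 autophagy genes, 4 rose and 3 fell in dyw2. NBR1, the cargo receptor, rose by 1.83 ± 0.17 (SE, edgeR adjusted p = 4.48e-06) and ATG8B by 1.43 ± 0.20 (SE, adjusted p = 7.74e-05), and ATG8F fell by 0.92 ± 0.15 (SE, adjusted p = 0.000302). Among 19 tested genes of dark senescence and chlorophyll breakdown, 7 rose and 5 fell in dyw2. The senescence regulator WRKY6 rose by 2.41 ± 0.23 (SE, adjusted p = 4.52e-06), whereas PIF4, a factor that promotes senescence in the dark, fell by 1.36 ± 0.20 (SE, adjusted p = 0.000108), as did the chlorophyll breakdown genes NOL and ACD2, by 1.25 and 1.20 on the log2 scale. NYE2, a stay-green gene of chlorophyll breakdown, rose by 2.37 ± 0.90 (SE, adjusted p = 0.0373), a call lost when any of the 6 dyw2 libraries was left out (adjusted p 0.0578 to 0.1). ABI5, an abscisic acid response factor, was the 1 gene of this list to fall in nuwa (edgeR adjusted p = 0.0396). It held 16, 15 and 8 counts in the libraries titled nuwa heterozygous and 0, 0 and 1 in those titled nuwa homozygous, a ratio of 25.9 (exact 95% interval 4.39 to 1050), and 9 of the 12 single-library omissions removed the call.

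Nuwa heterozygous replicate 2 stood above both companions by more than 1 on the log2 CPM scale for 10 of the 134 listed genes, or 7.46%, beside 3.15% of all genes, and 5 of these 10 were among the 19 dark senescence genes. NYE2 was at 0.198, 5.29 and 0.818 CPM in nuwa heterozygous replicates 1, 2 and 3. ORE1, a senescence regulator, was at 3.50, 27.7 and 7.12 CPM, and BCAT2 at 0.814, 4.35 and 1.03 CPM. The others were GPT2, IVD, SAG13, WRKY53, LKR, NAP and ATG8H. The 3 members DIN1, DIN2 and AT2G33830 were high in the same library.

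Among 13 starch breakdown genes, 2 rose and 5 fell in dyw2, with LSF1 at -1.38 ± 0.16 (SE, edgeR adjusted p = 1.82e-05), the maltose exporter MEX1 at -1.40 ± 0.19 (SE, adjusted p = 5.70e-05) and the beta-amylase BAM3 at -1.28 ± 0.24 (SE, adjusted p = 0.000616). Among 9 genes of starch synthesis and sugar induction, 2 rose and 6 fell. APL1, a subunit of the enzyme that makes ADP-glucose for starch, fell by 2.55 ± 0.18 (SE, adjusted p = 8.81e-07) and the beta-amylase BAM5 by 4.36 ± 0.996 (SE, adjusted p = 0.00258). GPT2, a sugar-induced glucose 6-phosphate carrier, rose by 4.10 ± 0.49 (SE, adjusted p = 2.50e-05). Among 11 genes of sugar transport and sucrose cleavage, 6 rose and 3 fell. The sucrose synthases SUS3 and SUS1 rose by 4.76 ± 0.45 (SE, adjusted p = 4.97e-06) and 3.28 ± 0.37 (SE, adjusted p = 1.58e-05), the hexose importer STP13 by 2.68 ± 0.36 (SE, adjusted p = 6.02e-05), and the sucrose exporter SWEET11 fell by 2.01 ± 0.25 (SE, adjusted p = 3.43e-05). The green leaf markers were lower in the same libraries, as given above, and their part in these lists was not tested. In nuwa no gene of the remobilization, trehalose-phosphate, autophagy, starch breakdown, starch synthesis or sugar transport lists was called by edgeR. In that order, 5, 3, 2, 2, 1 and 1 of them had an unadjusted p under 0.05, and DESeq2 called 2, 1, 0, 0, 0 and 1.

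**Figure D4:**
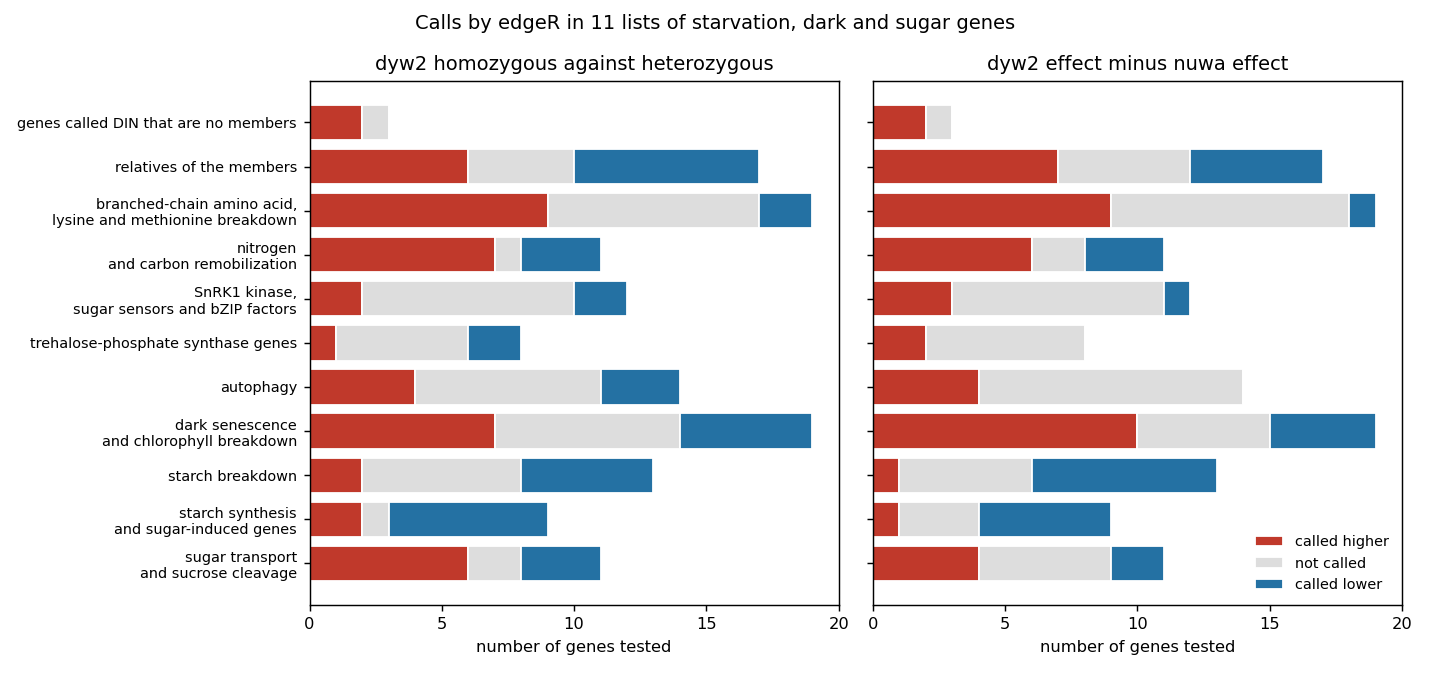
Number of tested genes called higher, not called and called lower by edgeR (adjusted p under 0.05) in each of the 11 lists, for dyw2 homozygous against heterozygous libraries and for the dyw2 effect minus the nuwa effect. The members are in none of the bars. In dyw2 rises outnumber falls for remobilization (7 and 3) and falls outnumber rises for starch synthesis (6 and 2).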

How the data were processed

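Counts are whole-number reads per gene model, not normalized, as deposited, and the deposited tables also give each model's length in bases, used here for levels per kilobase. Per the submitters' processing notes, TopHat2, Bowtie2 and TAIR10 were used. Per the file headers, reads with equal best and second-best alignment scores had been removed before counting. The kit was stranded, per the labels' protocols, and the sources used here do not give the use of strand in counting.

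Groups came from the sample titles. Genes kept by filterByExpr (minimum count 10, minimum total 15) were fitted in 1 model of 4 groups over 12 libraries (8 residual degrees of freedom) with edgeR 4.0.16 in R 4.3.3, using TMM and the quasi-likelihood F-test. P-values were adjusted by Benjamini-Hochberg over 21213 genes and called under 0.05. Each SE is the absolute log2 fold change over the square root of F. Log2 CPM used a prior count of 2. Alternatives were DESeq2 1.42.0, its size factors, no filter, a minimum count of 50, omitted libraries, other groupings, a replicate block, organelle genes omitted, only the line compared and a floral marker covariate. The fit was tested on simulated counts first. Exact 95% intervals of ratios came from the binomial (scipy 1.17.1). Replicate pairs differed beyond sampling noise (chi-square per degree of freedom 17.3 to 124).

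The members and lists were chosen with earlier results of these data known. Members got no test. Named listed genes followed a rule of up to 3 called genes per list, direction and line, and up to 2 per direction for the difference, by size of log2 fold change, of which those in the text are the larger part. KIN10, DIN3, ORE1, the bZIP genes listed at 0 and the other genes high in nuwa heterozygous replicate 2 were named after their values were seen. Promoter windows and positions come from the TAIR10.1 genome and annotation. Depth limits DIN2, DIN11, GDH3, BGLU31 and ABI5, whose groups hold few counts.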

Additional observations from a re-analysis of the deposited data

Results flagged for a closer look

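The effect in dyw2 differed from the effect in nuwa, by edgeR's test of the difference itself, for 76 of the 134 tested genes in the lists of starvation, dark and sugar functions, or 56.7%, beside 40.9% of all genes tested. The 34 genes below are those named for this difference (up to 2 per list and direction, by size, adjusted p 2.57e-05 to 0.0305). Other genes named for their dyw2 or nuwa effect, such as AT3G22850 (2.40) and RS2 (2.75), also passed this test. Values are the dyw2 log2 fold change minus the nuwa log2 fold change. The same quantity for the 7 members is a description, since it chose them. The lists too were chosen with earlier results of these data known, so the 56.7% is no test of enrichment. Groups of 3 libraries were not searched in general for outlying samples. The count of genes above both companions was made for nuwa heterozygous replicate 2 and for no other library.

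The dark-inducible genes and relatives of the members gave 7.29 for DIN11, 1.81 for DIN4, 4.36 for BGLU31, 3.63 for DRM1, -2.06 for ASN2 and -1.86 for AT4G27700. The BGLU31 value (SE 1.42) comes from few counts. Its libraries summed to 8 (dyw2 heterozygous), 35 (dyw2 homozygous), 6 (nuwa heterozygous) and 1 (nuwa homozygous). In amino acid breakdown and remobilization, BCAT2 was at 5.75, LKR at 3.06, BCAT1 at -2.27, GDH2 at 4.39, GLN1;3 at 3.35, GDH3 at -3.71 and GLN1;4 at -2.64. The isozymes thus differed in sign, BCAT2 from BCAT1, GDH2 from GDH3 and GLN1;3 from GLN1;4, as ASN2 and the member ASN1 do.

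Among sensors and trehalose-phosphate synthases, TOR was at 1.23, BZIP9 at 0.99, BZIP63 at -1.89, TPS10 at 1.71 and TPS9 at 0.76. In autophagy and senescence, ATG8B was at 1.78, NBR1 at 1.66, NYE2 at 5.68, ABI5 at 5.61, PIF4 at -1.66 and ACD2 at -1.39. In starch and sugar functions, ISA3 was at 1.13, BAM3 at -1.68, LSF1 at -1.60, GPT2 at 4.80, APL1 at -2.68, GBSS1 at -1.95, SUS3 at 4.60, SUS1 at 3.13, SWEET11 at -2.20 and SUC2 at -1.03.

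Leaving out nuwa heterozygous replicate 2 lowered the value of NYE2 to 3.65, of GPT2 to 3.72 and of BCAT2 to 4.56, with the call kept for these 3. Leaving out nuwa homozygous replicate 3 raised DIN11 to 10.3, ABI5 to 7.72, NYE2 to 6.46 and GLN1;3 to 4.18. DIN11 was at 6.44 without nuwa heterozygous replicate 1, at 6.65 without nuwa homozygous replicate 1 and at 8.18 without dyw2 heterozygous replicate 3. BGLU31 was at 6.47 without nuwa homozygous replicate 1, ABI5 at 6.40 without dyw2 heterozygous replicate 1, GDH3 at -5.45 without dyw2 homozygous replicate 2 and GLN1;4 at -3.28 without dyw2 homozygous replicate 3. Single omitted libraries removed the call of BGLU31, TPS9, ISA3 and SUC2, and leaving out both libraries of disputed label also removed that of BZIP9.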

How the results depend on the processing

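Among the 134 tested genes of the lists, the counts of calls in dyw2 (47 higher, 38 lower) and for the difference between the lines (48 higher, 28 lower) stayed within 1.5 times in every alternative except 1. With groups from the genotype field there were 0 calls for each of these, and 0 higher and 0 lower in nuwa. The same grouping gave 0 calls among all genes tested. Leaving out 1 library at a time gave 40 to 49 higher and 30 to 40 lower in dyw2, and 41 to 50 higher and 24 to 32 lower for the difference. The nuwa counts (1 higher, 5 lower) were less stable. They ranged from 0 to 2 higher and 0 to 16 lower over the single omissions, with 16 lower without nuwa homozygous replicate 3, 1 without nuwa heterozygous replicate 2 and 0 without nuwa homozygous replicate 2. There were 2 lower without nuwa heterozygous replicate 3, without dyw2 heterozygous replicate 3 or without any of the dyw2 homozygous libraries. DESeq2 gave 2 higher and 16 lower, and the omission of both disputed libraries 0 higher and 13 lower. No filter gave 0 higher. Fitting only the line compared, and the floral marker covariate, each gave 0 higher and 0 lower (main model 39 at an unadjusted p under 0.05 in either direction). With the replicate number as a block, the counts were 45 and 37 in dyw2, 0 and 2 in nuwa, and 47 and 26 for the difference. The numbers did not pair the samples: deviations of same-numbered libraries correlated at 0.0895, 0.0104 and 0.00648 in dyw2 and at -0.00517, 0.0573 and 0.167 in nuwa. Groups from the genotype field also turned the fitted nuwa values of ASN1 (1.11) and DIN2 (0.80) above 0, and reversed the difference for BCAT1 (0.29) and GDH3 (0.34). Among the members, which got no test, fitted values also changed sign for DIN9 in nuwa (4 settings) and AT3G15450 in dyw2 (3 settings). Over all genes tested in each setting, the nuwa calls moved too. Genes called lower were 135 in the main model, 573 by DESeq2 and 1024 without both disputed libraries. They were 1244 without nuwa homozygous replicate 3, 43 without nuwa heterozygous replicate 2 and 5 without nuwa homozygous replicate 2. Why the counts moved was not tested. Depth limits DIN2, at 0 to 3 counts in 8 libraries.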
